A study of Mus musculus with 4 samples.

Results

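The genes described here are the HOX genes and 8 other families of developmental transcription factors (Pax, Lhx, Dlx, Irx, the sine oculis family, Gata, Tbx and Nkx). They were chosen by name alone, as the mouse genes of the RefSeq gene table whose symbol is a family name followed by a number. This gave 106 genes, 39 of them in the HOX clusters, and 1 further Tbx gene is not reported here. Of the 106, 53 were listed in at least 1 of the 4 deposited tables, which together list 17543 genes. The other 53 were in no table and are carried as 0. The HOX, Lhx, Dlx, Irx and Nkx proteins, those of the sine oculis family and several Pax proteins bind DNA through a homeodomain, while Gata proteins use zinc fingers and Tbx proteins a T-box, so that only some of the families are homeobox genes.

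Liver RNA was sequenced from wild-type C57BL/6 mice (2 livers) and from C57BL/6 mice carrying the point mutation Ezh2 K307R on both copies (2 livers). The labels give no age, sex, litter or hour of collection, nor do they say that replicates are separate animals. The p-values below cover only the spread between these samples, which may be technical. The estimated reads summed to between 18602928 and 20044832 per liver. The level of Ezh2 was 3.35 and 3.93 CPM (read counts scaled to library size with TMM) in WT livers against 3.45 and 2.56 CPM in K307R livers, and a point mutation is not visible in gene counts. The hepatocyte gene Alb lay between 98431 and 105220 CPM in the 4 livers, and of 8 hepatocyte markers none was at 0. The X-linked RNA Xist had 6 and 6 reads in WT livers against 6172 and 11201 in the mutants, and 4 Y-linked genes together had 2732 and 2552 reads against 0 and 0. The clock gene Arntl was also higher in the mutants, with a log2 fold change of 3.97. Genotype, sex-chromosome pattern and clock state therefore cannot be told apart in any difference given below.

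Polycomb repressive complex 2 (PRC2) silences genes by methylating histone H3 at lysine 27, with Ezh2 or Ezh1 as its enzyme. HOX clusters and the other families are textbook targets of this mark: many of their promoters lie in CpG islands that Polycomb keeps silent in most adult tissues. HOX genes are ordered along each cluster in the order in which they act along the body axis, from group 1 at the 3′ end to group 13 at the 5′ end. The comparison asks whether these genes, mostly low in adult liver, were detected more often or at another level in livers with the altered Ezh2.

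The promoters were examined first, because CpG density is a property that the naming rule did not use. Of the 106 genes, 70 had a promoter in the RefSeq table of GRCm38.p6 (mm10), a window from 250 bases before to 50 bases after the start. The sequences below are the 250 bases before the start, 5′ to 3′, with every CG dinucleotide in capitals. They are shown for Lhx2, the gene that passed the test, at its 2 starts, for Hoxb4, the HOX gene with the highest level, and for Hoxd13, which was in no table.
Lhx2, upstream start: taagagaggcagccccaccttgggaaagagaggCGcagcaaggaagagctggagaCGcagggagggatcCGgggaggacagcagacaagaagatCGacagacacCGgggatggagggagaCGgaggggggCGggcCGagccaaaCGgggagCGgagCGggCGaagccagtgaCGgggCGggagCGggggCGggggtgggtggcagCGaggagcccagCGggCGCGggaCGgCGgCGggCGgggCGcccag
Lhx2, downstream start: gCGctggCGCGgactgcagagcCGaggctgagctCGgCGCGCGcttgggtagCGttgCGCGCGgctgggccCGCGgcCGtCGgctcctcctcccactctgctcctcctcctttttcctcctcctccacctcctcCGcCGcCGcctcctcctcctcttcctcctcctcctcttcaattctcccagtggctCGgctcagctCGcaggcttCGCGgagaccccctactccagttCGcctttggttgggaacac
Hoxb4: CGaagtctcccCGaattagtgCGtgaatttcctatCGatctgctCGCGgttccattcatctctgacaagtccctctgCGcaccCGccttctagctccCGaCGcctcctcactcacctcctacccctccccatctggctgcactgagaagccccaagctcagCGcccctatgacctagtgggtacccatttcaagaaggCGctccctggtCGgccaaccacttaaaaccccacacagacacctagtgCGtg
Hoxd13: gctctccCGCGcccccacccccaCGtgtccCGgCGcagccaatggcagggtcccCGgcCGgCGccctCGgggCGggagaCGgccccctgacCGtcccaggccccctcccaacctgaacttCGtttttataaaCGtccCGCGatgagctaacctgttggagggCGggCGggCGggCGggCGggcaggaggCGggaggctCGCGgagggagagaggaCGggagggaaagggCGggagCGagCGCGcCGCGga

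The upstream start of Lhx2 (chr2:38339031-38339280, plus strand) has 25 CG in these 250 bases and the downstream start (chr2:38351058-38351307, plus strand) has 24. Hoxb4 (chr11:96318017-96318266, plus strand) has 14, and Hoxd13 (chr2:74667975-74668224, plus strand) has 31. Hoxd13, in no table, thus had the most CG of the 4 windows shown.

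Over the whole 300 base window, CpG content was summarised as the number of CG found over the number expected from the C and G content (the dinucleotide reads the same on both strands). The median ratio was 0.68 in the 70 genes and 0.565 in all 17492 protein-coding genes with a promoter, of which 94.9% hold at least 1 CG. A ratio of at least 0.6 was found for 62.9% of the 70 genes and 47.3% of all protein-coding genes. The families' genes listed in no table had a median of 0.724 (36 genes), and those with a read had 0.667 (34 genes). Left out of the latter for want of a promoter sequence were the tested genes Gata4, Gata6, Irx1, Tbx2, Hoxb2 and Hoxb3. Among all protein-coding genes listed in no table the median was 0.181 (4807 genes), and 11.2% reached 0.6, against 61.1% of the 36. The median of the undetected family genes thus lay nearer to that of the 9925 protein-coding genes tested in liver (0.744) than to that of the other undetected genes. This describes sequence alone and was not tested. Among the families with at least 5 promoters, medians ranged from 0.761 in Nkx (11 genes) to 0.426 in Tbx (9 genes).

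**Figure D1:**
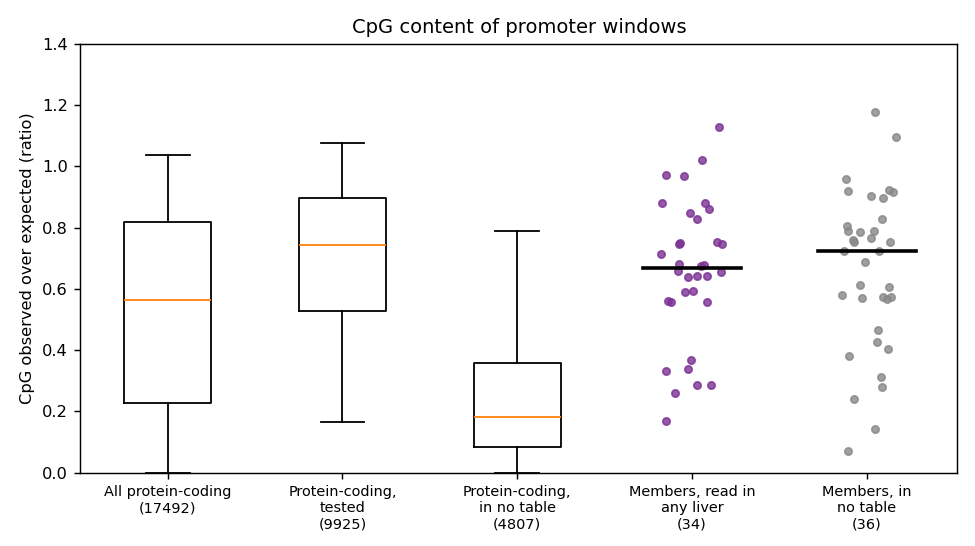
CpG observed over expected (ratio, y axis) in the 300 base promoter windows of all protein-coding genes, of those tested and of those in no table (boxes: quartiles with the median, whiskers: 5th to 95th percentile), and in single genes of the developmental families with a read in any liver or in no table (points, bar: median). Most of the family genes in no table (median 0.724) lie above the box of all protein-coding genes in no table (median 0.181).

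Most of the families' genes had few reads or none in both genotypes. A read was found for 32 and 40 genes in WT livers and for 41 and 41 in the mutant livers, so that the second wild-type liver lay within 1 gene of both mutant livers. In both wild-type livers 30 of the 106 (28.3%) had a read, and in both mutant livers 34 (32.1%). Among all protein-coding genes these shares were 64.2% and 64.5%. With 2 livers against 2 the smallest two-sided p of an exact permutation test would be 0.333. With at least 3 reads asked for, the counts were 23 and 24. A mean of at least 1 FPKM (the authors' level per transcript length and depth) was reached by 5 genes: Gata4, Gata6, Six5, Lhx6 and Lhx2. The highest, Gata4, had a mean of 3.62 FPKM over the 4 livers, above 59.5% of the 17543 genes listed.

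Genes seen in a single genotype had few reads. There were 10 with reads in mutant livers alone and 4 with reads in wild-type livers alone. Of the former, Lhx5 was the only gene with a read in both mutant livers (1 and 2 reads). Hoxc8 had 5 reads, all in 1 mutant liver, Nkx2-3 and Tbx1 had 3 each, likewise in 1 liver, and Gata1, Hoxc4, Hoxc5, Hoxd8, Lhx9 and Nkx1-2 had 1 each. In the wild type, Hoxd4, Nkx1-1, Nkx6-2 and Pax8 had 1 read each. None of these 14 had enough reads to be tested. The smallest value listed in the tables is 0.01 FPKM, and a gene in no table is not shown to be absent. In RNA of whole liver, fewer cells of a type and less RNA per cell cannot be told apart.

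The HOX genes were detected by position in the cluster. In the 4 livers together, groups 1 to 5 had a read for 12 of 15 genes, groups 6 to 8 for 6 of 8 and groups 9 to 13 for 0 of 16. All 344 HOX reads therefore came from groups 1 to 8. The genes Hoxb2 to Hoxb5, neighbours within 50509 bases of chromosome 11, held 228 of them (66.3%). The HoxA cluster held 86, with 11 and 20 reads in WT livers against 29 and 26 in K307R livers. HoxC had 10 reads in all and HoxD 2. Hoxb9 was listed in 1 mutant table with an estimated 0.39 reads, which rounds to 0. The 5′ genes, which pattern the posterior trunk, limbs and genital tract, were thus without a read in either genotype.

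**Figure D2:**
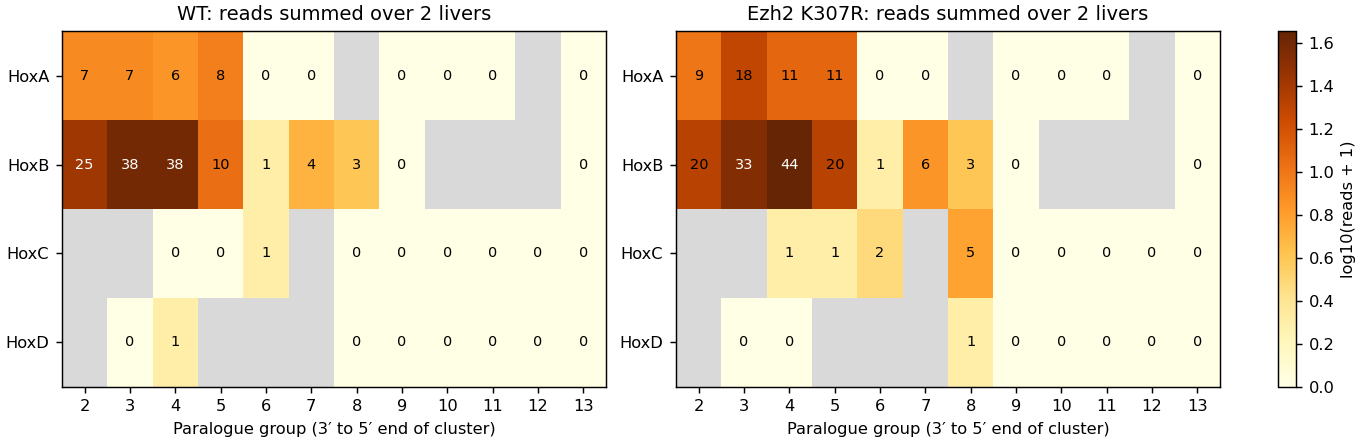
Reads summed over the 2 livers of a genotype for the HOX genes of groups 2 to 13, by cluster (vertical axis) and paralogue group (horizontal axis, 3′ to 5′), left WT and right Ezh2 K307R. Colour is log10(reads + 1) and grey cells are positions without a gene. Reads lie in the anterior groups in both genotypes, with 38 and 44 reads of Hoxb4, and groups 9 to 13 stand at 0.

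Of the 39 HOX genes, 3 had enough reads to be tested, and none of them passed the test (0 at an unadjusted p under 0.05, and 0 called by DESeq2 or limma-voom). Hoxb4, an anterior HOX factor also known in blood stem cells, had 0.81 and 1.14 CPM in WT livers against 1.17 and 1.12 CPM in K307R livers. Hoxb3 had 0.636 and 1.28 CPM against 0.954 and 0.767 CPM. Hoxb2, which acts in hindbrain segments, had 0.347 and 0.899 CPM against 0.371 and 0.665 CPM. The lower of the wild-type livers was replicate 1 in each of these genes, and the genotypes overlapped in all 3. The log2 fold changes were 0.23 for Hoxb4 (95% interval -0.81 to 1.26), -0.17 for Hoxb3 (-1.38 to 1.04) and -0.29 for Hoxb2 (-1.79 to 1.22), with edgeR adjusted p of 0.85, 0.909 and 0.873. The intervals are wide enough to hold a doubling of any of them. Without wild-type replicate 2 the values for Hoxb3 and Hoxb2 were 0.43 and 0.57. Hoxb3 and Hoxb4 overlap on chromosome 11, so reads may have been divided between them.

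The untested anterior HOX genes had few reads in each liver. Hoxb5, the neighbour of Hoxb4, had 3 and 7 reads in WT livers against 14 and 6 in K307R livers. Hoxa3, known for its part in thymus and parathyroid formation, had 2 and 5 against 9 and 9. Hoxa4 had 0 and 6 against 9 and 2. Of the 9 HOX genes with a read in every liver, Hoxa3 was the 1 whose genotypes did not overlap. Over all genes tested that share was 48.6%, but most of these 9 had too few reads to be tested, so the sets are unlike. Hoxa3 had 0.116 and 0.236 CPM against 0.477 and 0.46 CPM, too few reads for a test. Its annotated span on chromosome 6 encloses Hoxa4 and Hoxa5, so reads may have been divided between them. Hoxa5, a factor of lung and trunk development, had 4 and 4 against 4 and 7, and Hoxa2, of the hindbrain and second pharyngeal arch, 4 and 3 against 2 and 7. In HoxC the highest was Hoxc8, with 0 and 0 against 0 and 5, and in HoxD it was Hoxd8, with 0 and 0 against 1 and 0. Of 16 non-coding genes in or beside the HOX clusters that the gene table holds, 2 were in the tables: Hotairm1 had 3 and 1 reads against 0 and 0, and Hoxaas2 had 0 and 0 against 3 and 1.

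Across the families 15 genes were tested. Of these, 1 was called higher in the mutants by edgeR (adjusted p under 0.05), against 1.39% of the 12839 genes tested (178 genes), and 0 lower, against 1.47% (189 genes). With total-count scaling the split over all genes was 188 higher and 124 lower, and that of the families stayed at 1 and 0. At an unadjusted p under 0.05 there were 4 (16.8% of all genes), 3 higher and 1 lower. DESeq2, which gave an adjusted p to 16 of the families' genes, called 2 higher and 1 lower, against 5.65% of its 13078 genes in either direction. limma-voom called 1 of the 15 higher and 0 lower, against 2.3% of all genes in either direction. The genotypes did not overlap in 8 of the 15, against 48.6% of all genes tested, with 6 higher (25.2%) and 2 lower (23.3%). The median log2 fold change was 0.23, against 0.01 over all genes tested. Irx1 and Tbx6 had enough reads in the mutant livers alone and so had to differ to be tested, which makes these counts a description.

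**Figure D3:**
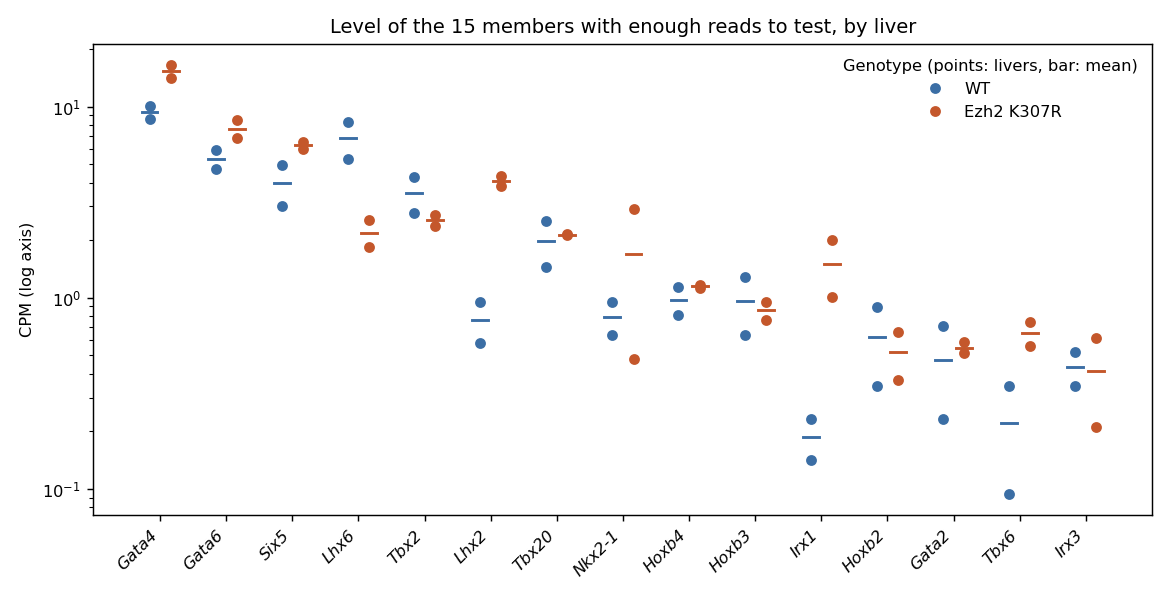
Level in CPM (log axis) of the 15 genes with enough reads to test, ordered by mean level, in each WT (blue) and Ezh2 K307R (orange) liver, with the mean of each genotype as a bar. The genotypes do not overlap in 8 of the 15, against 48.6% of all genes tested. Among the 8 are Lhx2 and Irx1 (higher in the mutants) and Lhx6 (lower), while the HOX genes overlap.

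Lhx2 was the gene called higher. It encodes a LIM-homeodomain factor that hepatic stellate cells, the vitamin A-storing cells of liver, are known to need to stay quiescent. It had 0.578 and 0.946 CPM in WT livers (10 and 20 reads) against 3.82 and 4.35 CPM in K307R livers (72 and 85 reads). Both mutant livers stood well above both wild-type livers. The level rose from 0.762 ± 0.26 to 4.08 ± 0.373 CPM (SD, n = 2 each), 5.26-fold, a log2 fold change of 2.40 (SE 0.40, 95% interval 1.46 to 3.33, edgeR adjusted p = 0.0266). The call was lost without mutant replicate 1 (log2 fold change 2.48, edgeR adjusted p = 0.0763) and without mutant replicate 2 (2.30, adjusted p = 0.122). It was kept without wild-type replicate 1 (2.10, adjusted p = 0.0164) or 2 (2.80, adjusted p = 0.00477). The deposited tables hold 2 transcripts of Lhx2. The longer had 10 and 20 estimated reads in the WT livers against 52.3 and 85 in the mutants, and the shorter 19.7 in mutant replicate 1 and 0 in the other livers.

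Markers of stellate cells and portal fibroblasts were read beside Lhx2, over a list of 11 genes. In this list 9 of the 11 tested had a positive log2 fold change, 1 was called higher and 1 lower, and none was at 0. At an unadjusted p under 0.05 there were 8, 6 higher and 2 lower. DESeq2 called 6 of them and limma-voom 1. The median was 0.88. Colec11, a collectin of stellate cells and hepatocytes, rose by 1.5 on the log2 scale (edgeR adjusted p = 0.0353). Col1a1, the main fibrillar collagen chain of activated stellate cells and fibroblasts, fell by 2.48 on the log2 scale (edgeR adjusted p = 0.0364). Eln, the elastin gene and the other marker with a negative value, had 77 and 324 reads in WT livers against 42 and 47 in K307R livers (-2.10, edgeR adjusted p = 0.0917). Both collagen and elastin genes were highest in wild-type replicate 2. Ngfr, a nerve growth factor receptor of stellate cells, had 1.51 (edgeR adjusted p = 0.0634) and Lrat, the enzyme that makes stored retinyl esters, 1.28 (edgeR adjusted p = 0.0791). Rgs5, a mural cell regulator, had 1.17, the secreted protein gene Reln 0.88 and the transcription factor gene Hand2 0.90, with edgeR adjusted p of 0.151, 0.176 and 0.237. Of Eln, Ngfr, Lrat, Rgs5, Reln and Hand2, none passed. The summed level of the list was 71.8 and 148 CPM in WT livers against 159 and 136 CPM in K307R livers, so that wild-type replicate 2 lay between the mutants. Without Col1a1 and Eln it was 49.8 and 84.2 CPM against 150 and 129 CPM. These genes were left out after their values were seen, because they were negative. The trimmed sum was therefore bound to have a higher mean in the mutants and is a description alone. The part of these cells in the Lhx2 difference was not tested.

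**Figure D4:**
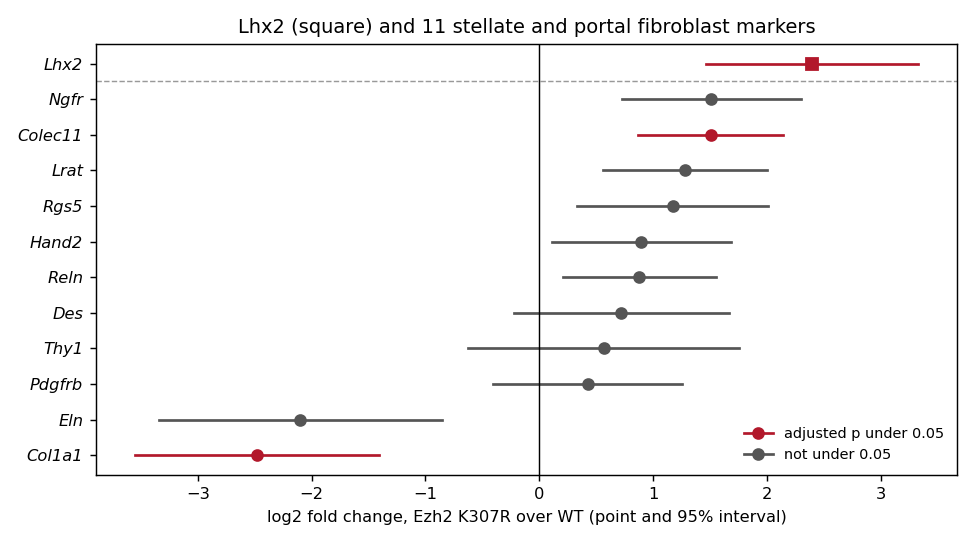
log2 fold change of Ezh2 K307R over WT with its 95% interval for Lhx2 (square, above the dashed line) and for 11 stellate and portal fibroblast markers (circles), with adjusted p under 0.05 in red. Lhx2 (2.40) lies beyond the markers that are higher, of which Colec11 (1.5) passed, and Col1a1 (-2.48) is lower.

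Lhx6 differed the other way without passing the test. It encodes a LIM-homeodomain factor known from cortical interneurons and from tooth and palate formation. It had 8.33 and 5.34 CPM in WT livers (144 and 113 reads) against 2.55 and 1.84 CPM in the mutant livers (48 and 36 reads). The genotypes did not overlap, and the mean was 6.84 ± 2.11 CPM against 2.19 ± 0.498 CPM (SD, n = 2 each). On the log2 scale this was a difference of -1.64 (SE 0.35, 95% interval -2.45 to -0.82), with an edgeR adjusted p of 0.0553. It passed in 4 of 14 alternatives: with DESeq2 (adjusted p = 0.00772), with no filter on low counts (edgeR adjusted p = 0.00854), without wild-type replicate 2 (edgeR adjusted p = 0.00584) and in the fit with the replicate number as a block. Over the 14, adjusted p ran up to 0.227, the value without mutant replicate 2. The reads were assigned to 4 transcripts, and their division differed between livers: the shortest had 67.2 and 0 estimated reads in WT livers against 0 and 17.2 in K307R livers. The other Lhx genes had 3 reads or fewer, Lhx5 and Lhx9 in mutant livers, and Lhx1, Lhx3, Lhx4 and Lhx8 were in no table.

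Irx1, an Iroquois homeodomain factor of neural, lung and limb patterning, had 4 and 3 reads in WT livers against 19 and 39 in K307R livers. This was 0.231 and 0.142 CPM against 1.01 and 1.99 CPM, without overlap. The gene had enough reads for the test through the mutant livers alone, so that it had to differ to be tested, and its values are given as a description. The log2 fold change was 2.99 (SE 0.64, 95% interval 1.5 to 4.48), with an edgeR adjusted p of 0.055. It passed in 3 of 13 alternatives: with DESeq2 (adjusted p = 0.0408), with edgeR without a filter (adjusted p = 0.0125) and without wild-type replicate 1 (edgeR adjusted p = 0.0436). The other 10 did not, and without mutant replicate 2 the log2 fold change was 2.41 (edgeR adjusted p = 0.348). Irx3, its relative in another cluster, had 6 and 11 reads against 4 and 12, with overlapping genotypes and -0.08 as log2 fold change (edgeR adjusted p = 0.973). Irx2, Irx4, Irx5 and Irx6 were in no table, although Irx2 and Irx4 lie in the same cluster on chromosome 13 as Irx1.

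**Figure D5:**
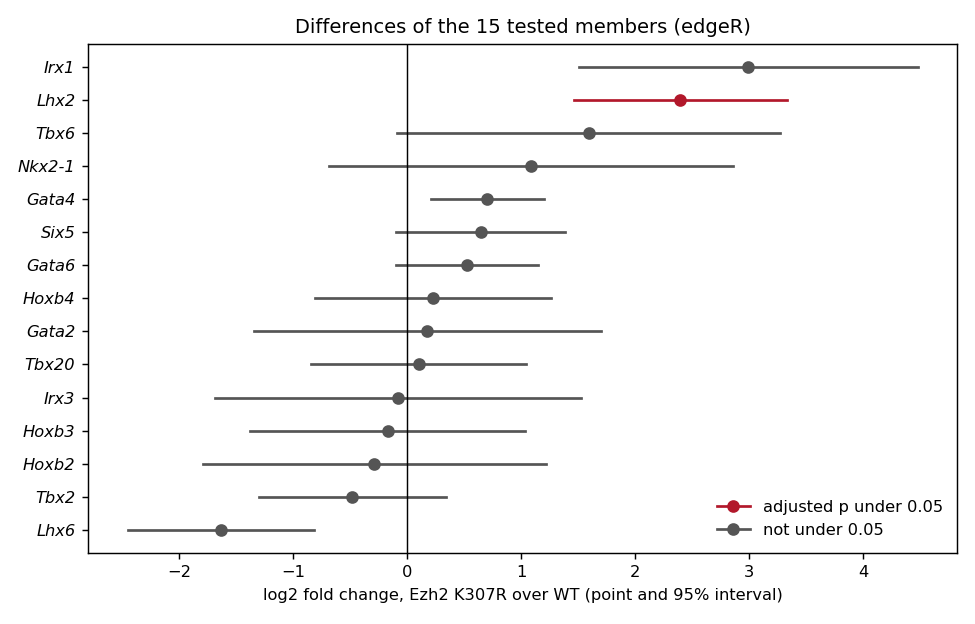
log2 fold change of Ezh2 K307R over WT with its 95% interval for the 15 tested genes, with adjusted p under 0.05 in red. Lhx2 is past the threshold; Irx1 (2.99) and Lhx6 (-1.64) have adjusted p above 0.05, and Irx1 and Tbx6 had enough reads through the mutant livers alone.

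The Gata family was the one with every gene listed. Gata4, a factor of liver bud formation that adult sinusoidal endothelium and stellate cells retain, had 8.62 and 10.1 CPM in WT livers against 14.2 and 16.4 CPM in K307R livers. The genotypes did not overlap, and the log2 fold change was 0.70 (95% interval 0.21 to 1.20, edgeR adjusted p = 0.141). Gata6, its close relative in endoderm and mesoderm, had 4.68 and 5.96 CPM against 8.48 and 6.85 CPM, again without overlap (log2 fold change 0.52, 95% interval -0.10 to 1.14, edgeR adjusted p = 0.387). Neither passed the test. Gata6os, an RNA that overlaps Gata6, had 11 and 17 reads against 26 and 19, and no source used here gives the strand setting of the counting. Beside these, the 10 markers of sinusoidal endothelium summed to 106 and 142 CPM in WT livers against 156 and 168 CPM in K307R livers. Of these markers 9 had a positive log2 fold change, 0 were called by edgeR, DESeq2 or limma-voom, 4 had an unadjusted p under 0.05 and none was at 0. Their part in the Gata4 values was not tested.

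The other Gata genes had few reads. Gata2, of endothelium and blood progenitors, had 4 and 15 reads in WT livers against 11 and 10 in K307R livers (log2 fold change 0.18, edgeR adjusted p = 0.926, and 1.21 without wild-type replicate 2). Gata3, of T cells and innate lymphoid cells, had 8 and 4 against 6 and 4, and Gata5 had 4 and 5 against 4 and 5. Gata1, the erythroid factor, had 1 read in the 4 livers. The erythroid and megakaryocyte markers summed to 377 and 462 CPM in WT livers against 543 and 620 CPM in K307R livers, mostly haemoglobin. Of 8 tested, 5 had positive values, and 4 had an unadjusted p under 0.05, 3 higher and 1 lower. The haemoglobin genes Hba-a1, Hbb-bs and Hbb-bt had log2 fold changes of 0.73, 0.73 and 0.95 (edgeR adjusted p of 0.259, 0.139 and 0.117). Alas2, the first enzyme of erythroid haem synthesis, fell by 1.94 on the log2 scale (edgeR adjusted p = 0.0276). DESeq2 called 3 of the 8.

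Of the sine oculis family, Six5, known from the myotonic dystrophy locus, was the one tested. It had 3.01 and 4.97 CPM in WT livers against 5.99 and 6.54 CPM in K307R livers, with a log2 fold change of 0.65 (95% interval -0.09 to 1.38, edgeR adjusted p = 0.366). The genotypes did not overlap, and the wild-type livers were further apart than the mutant livers. Six3, a forebrain and eye factor, had 6 and 4 reads against 3 and 3. Six2 and Six4 had 5 reads or fewer in all, and Six6 was in no table.

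In the Tbx family 3 genes were tested and none passed. Tbx2, a repressor in heart and limb, had 2.78 and 4.30 CPM in WT livers against 2.39 and 2.71 CPM in K307R livers (log2 fold change -0.48, edgeR adjusted p = 0.561). Tbx20, a heart factor, had 1.45 and 2.51 CPM against 2.12 and 2.15 CPM (0.10, edgeR adjusted p = 0.932). Tbx6, which acts in the paraxial mesoderm, had 6 and 2 reads against 14 and 11, a log2 fold change of 1.59 with a 95% interval of -0.09 to 3.27 (edgeR adjusted p = 0.323). Without wild-type replicate 1 it was 2.71 and without wild-type replicate 2 it was 0.89, and like Irx1 it could be tested through its reads in the mutant livers alone. Tbx2 and Tbx6 were without overlap between the genotypes, as were 48.6% of all genes tested, and Tbx20 overlapped. Tbx21, the T-bet factor of T and NK cells, had 4 and 8 reads against 4 and 11. The T and NK cell markers beside it summed to 5.03 and 6.81 CPM against 6.04 and 4.70 CPM. Of 7 tested, 3 were positive, 0 called and 1 at an unadjusted p under 0.05, and Trac was in no table. Tbx5 had between 1 and 4 reads a liver, Tbx1 3 reads in 1 mutant liver, and the other 6 Tbx genes were in no table.

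Nkx2-1, the factor of thyroid, lung and ventral forebrain, was the tested Nkx gene, and a single liver set its value. It had 0.636 and 0.946 CPM in WT livers against 0.477 and 2.91 CPM in K307R livers, so that 1 mutant liver was below and 1 above both wild-type livers. Its log2 fold change was 1.09 (95% interval -0.69 to 2.86, edgeR adjusted p = 0.537), and -0.73 without mutant replicate 2. Nkx2-6, a pharyngeal and heart factor, had 3 and 14 reads against 7 and 3, and it overlaps a long non-coding RNA in the annotation. Of the other 12 Nkx genes, 8 were in no table and 4 had 3 reads or fewer.

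The Pax and Dlx genes were at the edge of detection. Pax9, of pharyngeal endoderm and teeth, had 9 and 9 reads in WT livers against 8 and 7 in K307R livers, and it overlaps Slc25a21 in the annotation. Pax5, the B cell identity factor, had 0 and 4 against 5 and 2. The B cell markers beside it summed to 4.28 and 5.44 CPM against 6.04 and 2.61 CPM. Of 4 tested, 2 were positive, 0 called and 0 at an unadjusted p under 0.05, and Ighm was in no table. Pax1 had between 1 and 5 reads a liver, Pax6 up to 3, and Pax8 1 read in all. Dlx4 had 3 reads in the 4 livers, and the other 5 Dlx genes, like Pax2, Pax3, Pax4 and Pax7, were in no table.

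Genes that write, read or remove the Polycomb mark showed few calls. Of 13 PRC2 subunits tested, 0 were called by edgeR, DESeq2 or limma-voom and 3 had an unadjusted p under 0.05 (median log2 fold change -0.18). These were Epop, an elongin-binding subunit, at -1.17 (edgeR adjusted p = 0.118), Phf1, a Polycomb-like subunit, at 0.56 (0.198), and Ezh1. Ezh1 had 10.9 and 9.89 CPM in WT livers against 15.3 and 13.7 CPM in K307R livers (0.48, edgeR adjusted p = 0.289). In each liver its level was above that of Ezh2. Of 21 PRC1 subunits 1 rose and 0 fell (median 0.08). This was Bcor, an X-linked subunit of a variant PRC1, with 127 and 174 reads against 370 and 361, or 1.29 on the log2 scale (SE 0.20, edgeR adjusted p = 0.0207). Of 12 demethylases and trithorax genes 0 were called by the 3 tools and 3 had an unadjusted p under 0.05 (median 0.24), among them the X-linked demethylase gene Kdm6a at 0.82 (edgeR adjusted p = 0.0952).

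Most partners of the families were listed in the tables. All 11 TALE cofactors of HOX proteins were listed and 9 tested. None was called by edgeR or limma-voom, 1 was by DESeq2, and 2 had an unadjusted p under 0.05. Pbx3, a HOX partner, had 44 and 67 reads against 24 and 28 (log2 fold change -1.08, edgeR adjusted p = 0.196). Of 11 tested cofactors of GATA, LIM and T-box factors and of 7 tested partners of PAX and sine oculis proteins, 0 were called by any of the 3 tools (0 and 1 at an unadjusted p under 0.05, medians -0.19 and 0.06). Their smallest p belonged to Zfpm1, the FOG1 partner of GATA factors (0.46, edgeR adjusted p = 0.309), and Tle3, a Groucho corepressor (0.91, edgeR adjusted p = 0.101). Of 12 tested retinoid and related inputs to HOX genes, 0 were called by the 3 tools, with 1 at an unadjusted p under 0.05 and a median of 0.28, the value of the retinaldehyde dehydrogenase gene Aldh1a1 being 0.88 (edgeR adjusted p = 0.23).

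Of 35 other homeobox genes of liver and gut, 22 were tested and 0 called by the 3 tools, with 6 at an unadjusted p under 0.05 and a median log2 fold change of 0.33. Onecut2, a hepatocyte and bile duct factor, had 55.6 ± 5.35 CPM in WT livers against 99.8 ± 32.4 CPM in K307R livers (SD, n = 2 each; log2 fold change 0.84, edgeR adjusted p = 0.138), and Zeb2, a zinc-finger homeobox repressor, had 0.88 on that scale (edgeR adjusted p = 0.148). Cux2, a homeobox repressor chosen after its values were seen, had 9 and 172 reads in WT livers against 882 and 294 in K307R livers, so that its livers differed within each genotype (2.80, edgeR adjusted p = 0.17). Hopx, a small homeodomain protein without DNA binding, had -0.78 (edgeR adjusted p = 0.114).

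Markers of other cells that could carry these factors gave the following. The 8 hepatocyte markers had a median of 0.02, with 0 called by the 3 tools and 0 at an unadjusted p under 0.05. Of 8 Kupffer cell markers 7 were positive (summed level 158 and 192 CPM against 321 and 211 CPM), 0 were called by edgeR or limma-voom, 1 was by DESeq2 and 4 had an unadjusted p under 0.05. The mesothelial markers summed to 207 and 269 CPM against 182 and 159 CPM. Of 4 tested, 0 were positive, 0 called and 0 at an unadjusted p under 0.05. Most of this sum was Krt8, with 202 and 255 CPM in WT livers against 175 and 155 CPM in K307R livers. The bile duct markers summed to 71.4 and 55.5 CPM against 32.6 and 61.1 CPM (0 of 6 called, 1 at an unadjusted p under 0.05). Spp1 made up most of this, with 64.3 and 46.9 CPM against 25.2 and 48.5 CPM. Those of innate lymphoid and mast cells summed to 76.7 and 47.3 CPM against 47.9 and 61 CPM. Of 2 tested, 0 were called and 0 were at an unadjusted p under 0.05, and Tpsb2 was in no table. Rora made up most of this sum, with 74.6 and 44.8 CPM against 45.4 and 58.5 CPM. Of the kidney and adrenal markers 6 of 7 were in no table, Star being the exception (0 called, 1 at an unadjusted p under 0.05). Of those of pancreas and gut Prss1, Cpa1, Ins1, Ins2 and Gcg were in no table. Of 4 tested 0 were called by edgeR or limma-voom, 1 was by DESeq2 and 3 had an unadjusted p under 0.05.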

How the data were processed

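Per the submitters' processing notes HISAT, Bowtie2, RSEM and mm10 were used; no source used here gives versions, trimming or strand. The deposited tables, 1 a liver, hold RSEM expected counts per RefSeq transcript, not normalized, and FPKM, per the file headers. Absent transcripts were taken as 0.

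Expected counts were summed per Entrez gene and rounded to whole numbers. Symbols came from the RefSeq gene table of GRCm38.p6 (17502 of 17543 genes). All genes were fitted with edgeR 4.0.16 (R 4.3.3): TMM, filterByExpr (12839 genes kept), quasi-likelihood F test with genotype alone on 2 residual degrees of freedom, Benjamini-Hochberg adjustment over all genes tested, threshold 0.05. CPM use TMM library sizes. The script was tested on simulated data. The alternatives were other scalings and filters, DESeq2 1.42.0, limma 3.58.1 (voom, and trend on log2(FPKM + 1) and log2(FPKM + 0.1)), a replicate block, and each liver left out.

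Named are the genes tested, those with a mean of at least 0.2 CPM in a genotype and the highest of each family by FPKM; a few others were chosen after their values were seen. From each list come the genes called or, failing that, up to 3 with the smallest p. The genes and lists were chosen with earlier results of these data known. The values of a few genes are not reported here.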

Additional observations from a re-analysis of the deposited data

How the results depend on the processing

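Lhx2 stayed higher under all 14 alternatives, with log2 fold changes of 1.10 to 2.80 and adjusted p of 0.00123 to 0.122, and 10 of the 14 kept its call. The exceptions were each mutant liver left out, log2(FPKM + 1) (1.10, limma adjusted p = 0.0599) and log2(FPKM + 0.1) (2.22, limma adjusted p = 0.0761). In all, 2 families' genes were called higher with no filter and with DESeq2 and 0 with limma on either FPKM scale. Called lower was 1 with no filter, with DESeq2 and with the replicate block. Leaving out 1 liver gave 0 to 2 called higher, 0 to 1 called lower and a median log2 fold change of 0.0134 to 0.706. The cause of these shifts was not tested, beyond the fewer livers.

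Over all genes, 411 were higher and 420 lower with no filter, 369 and 370 with DESeq2, 94 and 69 with limma on log2(FPKM + 1), 66 and 60 on log2(FPKM + 0.1), and 124 lower (188 higher) with total-count scaling. Leaving out 1 liver gave 106 to 320 higher and 93 to 381 lower. Without a liver, the lone liver of a genotype is assumed to vary as the other genotype does.

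The direction of 6 genes turned when a liver was left out: Gata2 (-0.37 to 1.21), Tbx20 (-0.23 to 0.56), Hoxb3 (-0.57 to 0.43), Hoxb2 (-0.78 to 0.57), Irx3 (-1.02 to 0.47) and Nkx2-1 (-0.73 to 1.85, log2 fold changes). None of these passed in any setting.

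Detection in both livers fell to 10 wild-type and 12 mutant genes at 10 reads, and to 15 and 18 at 0.1 FPKM. Counting every start, chosen after the data were seen, gave a promoter CpG ratio of 0.693. The replicate numbers share no stated origin, and same-numbered livers did not deviate together (correlation -0.00126 across genes). With the replicate block 174 genes were higher and 186 lower, and of the families' genes Lhx6 was gained (edgeR adjusted p = 0.0492). Low counts limit the HOX genes: 1 read is worth 0.0499 to 0.0538 CPM before TMM.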
